A study of Drosophila melanogaster with 4 samples.

Results

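Small RNAs were compared between Drosophila S2 cells that lack Nibbler (nbrKO) and carry the construct NbrCTD-GWp, and nbrKO cells without a construct. S2 cells are a line of embryonic origin, and the knockout of Nibbler (Nbr) was made with CRISPR-Cas9. The genotype labels read Act5C>NbrCTD-GWp; nbrKO for the first library and nbrKO for the second, where Act5C is the promoter of a constitutive actin gene and the construct was stably transfected. What CTD and GWp stand for is not in the labels, so the construct keeps its label name, and whether a line is 1 clone or a pool is not stated either. A further pair of libraries, NbrCTD and Nbr(wt), came from the same knockout carrying other constructs and serve only for direct comparison. Each group held 1 library of RNA of 18 to 30 nt, made from 25 µg of total RNA of cells grown at 25 °C. Differences below were thus not checked in a replicate, and every interval shows counting error alone. No library came from cells with Nbr intact or with an empty construct, and the level of Nbr or of the constructs was not measured.

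The comparison takes the rows of the deposited miRNA table that give genome-matching reads in both libraries. The table has 495 rows, each a 5′ isoform of a miRNA arm. Of these, 361 were given with NbrCTD-GWp, 57 of them not in nbrKO, and the shared rows joined into 294 arms. A tailed share could be measured in 120 arms, which had 100 or more reads in both libraries. It is the percentage of an arm's reads that carry an untemplated 3′ tail, namely PM reads divided by GM plus PM reads. Unless said otherwise, an arm's reads are those of the 5′ isoform listed for it in both libraries. Its other 5′ isoforms are not counted in tailed shares, abundance or passenger shares. The headers do not spell out GM and PM, which were read here as genome-matching and prefix-matching, that is tailed, reads. The 120 arms held 99.98% of the reads of the 294 arms with NbrCTD-GWp and 99.97% in nbrKO, with 107 to 5850764 reads per arm with NbrCTD-GWp and 124 to 4566844 in nbrKO.

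In flies, a miRNA is cut from its hairpin by Drosha and Dicer-1 and loaded as a guide strand into Argonaute1, while the other arm, the passenger, is mostly discarded. The 3′ end of the loaded guide stays within reach of enzymes: Nibbler, a 3′-to-5′ exonuclease, shortens it, and nucleotidyltransferases such as Tailor add untemplated nucleotides. The 5′ end sets the seed, the stretch that pairs with target mRNAs. Read lengths were not analysed here, so tails are the only readout of the 3′ end.

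The deposited table holds 7 letters at the 5′ end of each isoform and no longer sequence, and it does not say which bases of the miRNA they cover. They are shown for the arms on which the results turn, written in capitals throughout since each is a whole deposited string with T for U.
miR-34-5p: TGGCAGT
miR-305-5p: ATTGTAC
miR-317-3p: TGAACAC
miR-275-3p and miR-306-5p: TCAGGTA
miR-995-3p and miR-998-3p: TAGCACC
miR-279-3p and miR-996-3p: TGACTAG
miR-9b-5p and miR-9c-5p: TCTTTGG
miR-980-3p: TAGCTGC
bantam-3p: TGAGATC
miR-92a-3p: CATTGCA
miR-92b-3p: AATTGCA
By the authors' positions, in a genome build not given in the sources used here, miR-34-5p starts at 5926673 and miR-317-3p at 5916902 on the plus strand of 3R. miR-275-3p and miR-305-5p start at 7425852 and 7425978 on the plus strand of 2L. Matching by name to Ensembl's fly annotation found 216 of 219 precursors. There, miR-34 lies in an exon of the non-coding gene lncRNA:CR43459 and miR-275 in an exon of lncRNA:CR43857, while miR-11 and miR-998 lie in an intron of E2f1, which encodes a cell cycle transcription factor.

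Fewer miRNA reads carried tails with NbrCTD-GWp than in nbrKO. Pooled over all arms, 1.85% of reads were tailed with NbrCTD-GWp and 2.72% in nbrKO. bantam-3p alone gave 32.9% of the reads with NbrCTD-GWp and 34.8% in nbrKO, and without it the pooled shares were 2.44% with NbrCTD-GWp and 3.85% in nbrKO. Over the 120 arms the median share was 2.18% with NbrCTD-GWp (quartiles 1.25% and 4.12%) and 3.01% in nbrKO (1.60% and 6.27%). An arm was called lower or higher where the exact 95% intervals of both libraries did not overlap. By this rule 51 of the 120 arms were lower with NbrCTD-GWp (42.5%) and 8 were higher (6.67%), while the other 61 had overlapping intervals. Ignoring intervals, 91 arms lay below their nbrKO value and 29 above it. Arms with over 5% of tailed reads numbered 25 with NbrCTD-GWp and 39 in nbrKO, and arms under 1% numbered 23 with NbrCTD-GWp and 15 in nbrKO.

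**Figure D1:**
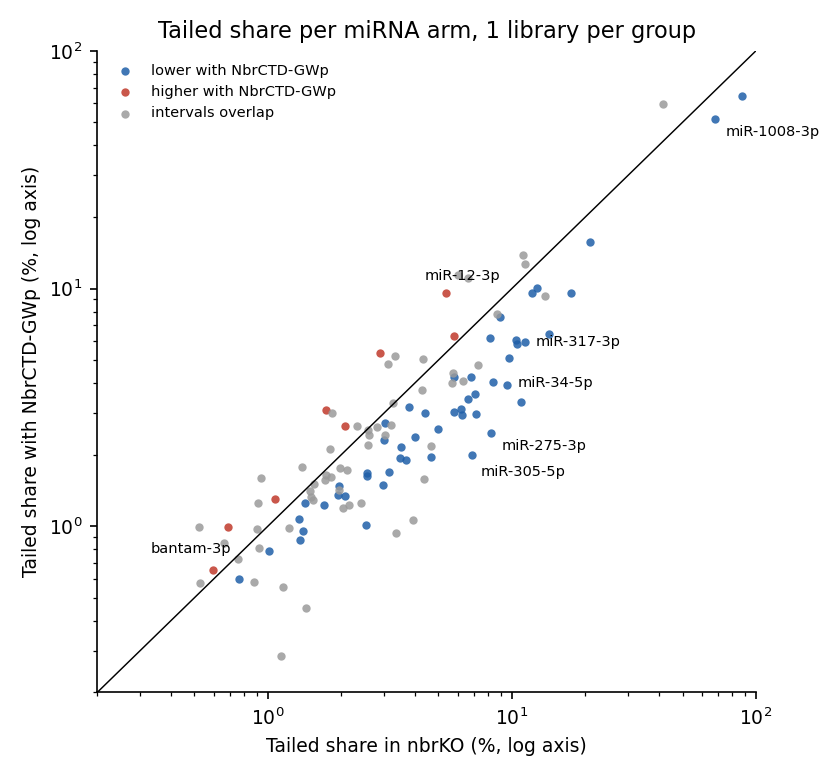
Tailed share of each miRNA arm with NbrCTD-GWp (vertical) and in nbrKO (horizontal), in percent on log axes, 1 point per arm for the 115 of 120 arms with a share above 0 in both libraries. Points under the diagonal have the lower share with NbrCTD-GWp: 51 called lower are blue, 8 called higher are red, and grey arms have overlapping intervals.

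The scatter of tailed shares shows how far the calls went with the starting level. Among 15 arms under 1% in nbrKO, 1 was lower with NbrCTD-GWp and 2 were higher. Of 27 arms at 1% to 2%, 8 were lower and 2 higher, and of 39 arms at 2% to 5%, 16 were lower and 2 higher. Above that, 15 of 24 arms at 5% to 10% were lower and 2 higher, and 11 of 15 arms at 10% or more were lower with none higher. The median log2 odds ratio, which sets the odds of a tail with NbrCTD-GWp over those in nbrKO, ran through these bands at 0.13, -0.26, -0.62, -0.71 and -0.84. The bands are cut on the nbrKO value, which also enters the odds ratio, so they are not independent of it. Calls also moved with depth: 3 of 33 arms with under 1000 reads in nbrKO were lower, against 12 of 36 with 1000 to 10000, 24 of 34 with 10000 to 100000, and 12 of 17 above that.

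The guide miR-34-5p, which protects the ageing fly brain, had 3.92% tailed reads with NbrCTD-GWp (95% interval 3.84 to 4.00, 227286 reads) and 9.58% in nbrKO (9.45 to 9.72, 188410 reads). Its log2 odds ratio was -1.38. In miRNA RPM, that is RPM with the reads of the joined arms as the total, its tailed reads stood at 501 with NbrCTD-GWp and 1376 in nbrKO, whereas its untailed reads stood at 12292 with NbrCTD-GWp and 12980 in nbrKO. Tailed reads were thus far fewer, whereas untailed reads hardly differed. Its passenger miR-34-3p also fell, at 2.93% with NbrCTD-GWp and 6.26% in nbrKO. From the same neighbourhood on 3R, miR-317-3p had 5.94% with NbrCTD-GWp (5.85 to 6.03) and 11.3% in nbrKO (11.2 to 11.4), and its passenger miR-317-5p had 0.878% with NbrCTD-GWp and 1.36% in nbrKO. miR-277-3p, which regulates the breakdown of branched-chain amino acids, had 1.23% with NbrCTD-GWp and 1.70% in nbrKO. The intervals of its passenger miR-277-5p overlapped, at 1.77% with NbrCTD-GWp and 1.38% in nbrKO. Of the 6 arms of this cluster, 5 were thus lower, beside 42.5% of all 120 arms. Their median log2 odds ratio was -0.82 beside -0.40 over all 120 arms. All 6 arms of the cluster had over 10000 reads in nbrKO. At that depth, 24 of 34 arms up to 100000 reads and 12 of 17 above it were lower.

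The neighbours miR-275 and miR-305 had larger falls in proportion in both guides. miR-305-5p, a regulator of intestinal stem cells, had 1.99% with NbrCTD-GWp (1.93 to 2.06, 162935 reads) and 6.88% in nbrKO (6.71 to 7.05, 85728 reads), a log2 odds ratio of -1.86. miR-275-3p had 2.46% (2.39 to 2.53, 214414 reads) with NbrCTD-GWp and 8.21% (8.04 to 8.38, 97092 reads) in nbrKO, a log2 odds ratio of -1.83. In both, tailed reads were fewer and untailed reads more: miR-305-5p held 183 tailed miRNA RPM with NbrCTD-GWp and 449 in nbrKO, and 8988 untailed miRNA RPM with NbrCTD-GWp and 6082 in nbrKO. The passenger miR-275-5p was lower too, at 3.42% with NbrCTD-GWp and 6.62% in nbrKO, while intervals of miR-305-3p overlapped at 1.42% with NbrCTD-GWp and 1.95% in nbrKO. The cluster's median log2 odds ratio was -1.41. miR-306-5p, from a cluster in an intron of grp, carries the same 5′ letters as miR-275-3p and changed less, from a nearly equal level in nbrKO: it had 6.18% with NbrCTD-GWp (6.02 to 6.35) and 8.16% in nbrKO (7.92 to 8.41).

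Of 10 miRNAs listed as reported Nbr substrates from background knowledge, 8 had enough reads, 5 of them were lower with NbrCTD-GWp and 1 was higher, beside 42.5% lower and 6.67% higher over all 120 arms. The list is of miRNAs known for trimming and not for tails. Besides miR-34-5p, miR-305-5p and miR-317-3p, the lower members were miR-11-3p and miR-31a-5p. All of these but miR-31a-5p had over 10000 reads in nbrKO. At that depth, 24 of 34 arms up to 100000 reads and 12 of 17 above it were lower. miR-11-3p, which restrains cell death genes, had 2.37% (2.32 to 2.42) with NbrCTD-GWp and 4.02% (3.95 to 4.08) in nbrKO. miR-31a-5p, which had few reads, had 3.33% (1.45 to 6.46, 240 reads) with NbrCTD-GWp and 10.9% (7.78 to 14.8, 329 reads) in nbrKO. The higher member was miR-7-5p, a miRNA of Notch signalling and photoreceptor development, at 0.992% (0.904 to 1.09) with NbrCTD-GWp and 0.684% (0.522 to 0.880) in nbrKO. miR-263a-5p, which protects sensory bristles from cell death and is named bft in the table, had 4.02% (2.96 to 5.33) with NbrCTD-GWp and 5.70% (4.78 to 6.74) in nbrKO, which overlap. miR-3-3p had 1 tailed read in 153 with NbrCTD-GWp and 0 in 128 in nbrKO, whose interval reaches 2.84%, so a fall was not detectable at this depth. The median of the 8 was 2.85% with NbrCTD-GWp and 6.29% in nbrKO, with a median log2 odds ratio of -0.90 beside -0.40 over all arms.

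**Figure D2:**
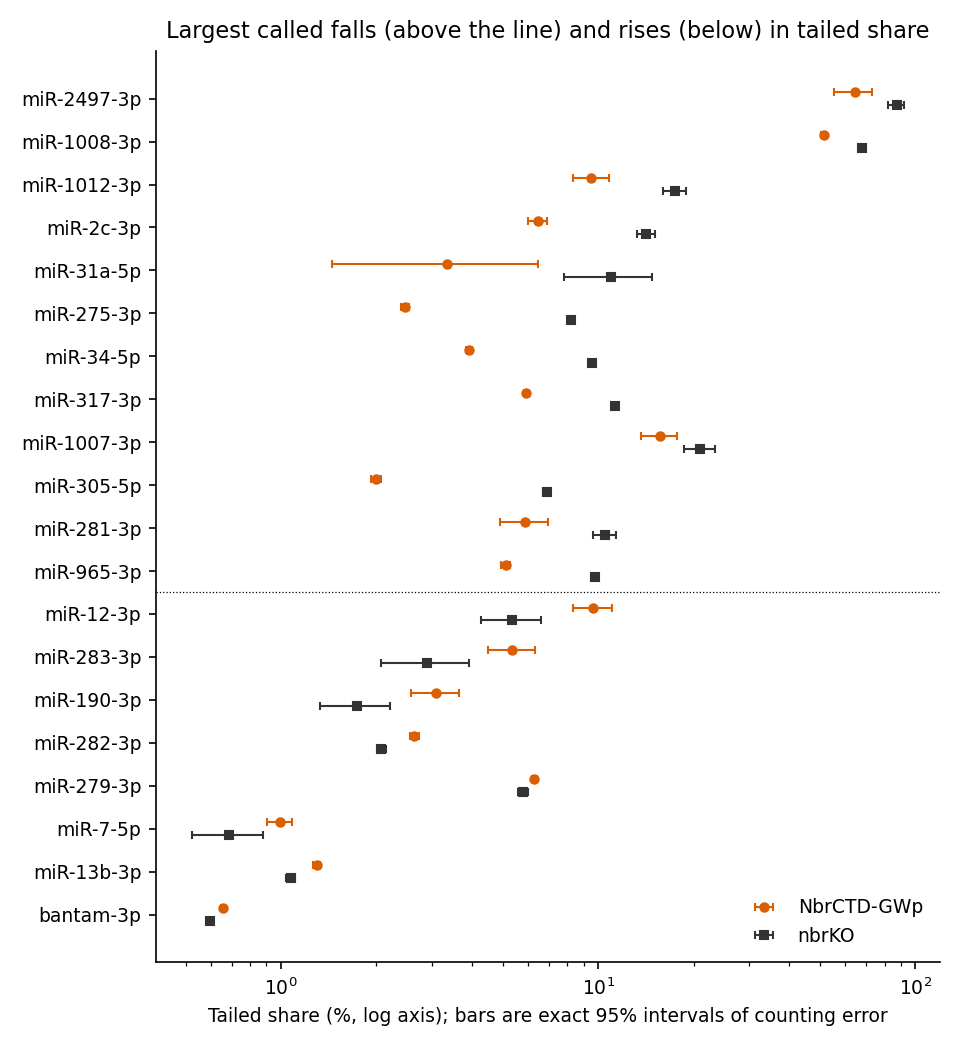
Tailed share, in percent on a log axis, of the 12 called arms with the largest fall in percentage points (above the dotted line) and of all 8 called higher (below it). Circles are NbrCTD-GWp, squares nbrKO, and bars exact 95% intervals; the intervals of miR-31a-5p and miR-2497-3p are wide because these arms have few reads.

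The largest falls in percentage points, drawn with all rises in the dot plot of both libraries, belonged to arms with heavy tailing. miR-2497-3p had 64.5% (55.2 to 73.0, 121 reads) with NbrCTD-GWp and 87.8% (82.2 to 92.2, 181 reads) in nbrKO. Its precursor overlaps an exon of her, a gene of sex determination. miR-1008-3p had 51.4% (50.3 to 52.5) with NbrCTD-GWp and 68.0% (66.7 to 69.3) in nbrKO. These arms remained tailed in most of their reads in both libraries. miR-1012-3p, from an intron of Lerp, had 9.53% with NbrCTD-GWp and 17.4% in nbrKO, and miR-1007-3p, from an intron of Abca3, had 15.6% with NbrCTD-GWp and 20.9% in nbrKO. miR-965-3p, from an intron of kis, had 5.11% (4.95 to 5.28) with NbrCTD-GWp and 9.74% (9.48 to 10.0) in nbrKO. For miR-281-3p the shares were 5.86% with NbrCTD-GWp and 10.5% in nbrKO, and for miR-2c-3p they were 6.46% with NbrCTD-GWp and 14.2% in nbrKO, a value that is uncertain because some of its reads are split with its relatives. Among the 51 lower arms, 36 differed by at least 1 percentage point and 10 had at most 50% of their nbrKO share.

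The 8 higher arms differed less. The largest rises were in passenger arms on modest read numbers: miR-12-3p had 9.61% (8.32 to 11.0) with NbrCTD-GWp and 5.37% (4.29 to 6.63) in nbrKO, and miR-283-3p had 5.36% (4.48 to 6.35) with NbrCTD-GWp and 2.89% (2.07 to 3.92) in nbrKO. The third was miR-190-3p at 3.08% with NbrCTD-GWp and 1.73% in nbrKO, and the fourth miR-282-3p at 2.63% with NbrCTD-GWp and 2.07% in nbrKO. Both of the first arms come from 1 cluster in introns of Gmap, in which 3 other arms were lower. There miR-283-5p had 2.95% with NbrCTD-GWp and 7.14% in nbrKO, miR-304-5p 1.47% with NbrCTD-GWp and 1.965% in nbrKO and miR-12-5p 0.951% with NbrCTD-GWp and 1.40% in nbrKO. The 3 remaining called rises were small and were seen on deep arms: miR-279-3p at 6.28% with NbrCTD-GWp and 5.80% in nbrKO, miR-13b-3p at 1.30% with NbrCTD-GWp and 1.07% in nbrKO, and bantam-3p, the growth-promoting miRNA, at 0.655% (0.648 to 0.661) with NbrCTD-GWp and 0.599% (0.592 to 0.606) in nbrKO. Together with miR-7-5p, these made up all 8, with log2 odds ratios of 0.12 to 0.92, against -1.97 to -0.15 over the 51 lower arms.

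Separate counts of tailed and untailed reads show what moved. Over the 51 lower arms, the median log2 fold of tailed reads was -0.76 and that of untailed reads 0.03, on the log2(miRNA RPM + 1) scale. Tailed reads were fewer with NbrCTD-GWp in 42 of the 51, with untailed reads more in 17 of these and fewer in 25. In the other 9, both kinds were more abundant and untailed reads had the larger fold. miR-184-3p, known from the female germline and early embryo, is the most abundant of these: it held 2674 tailed miRNA RPM with NbrCTD-GWp and 2485 in nbrKO, while its untailed reads stood at 101875 with NbrCTD-GWp and 47502 in nbrKO. Its lower share of 2.56% with NbrCTD-GWp against 4.97% in nbrKO came with that gain in untailed reads. For miR-14-3p, which suppresses cell death, tailed reads stood at 2054 with NbrCTD-GWp and 4629 in nbrKO, and its share was 1.93% (1.91 to 1.95) with NbrCTD-GWp against 3.46% (3.44 to 3.49) in nbrKO. miR-8-3p, a relative of the vertebrate miR-200 family that acts in growth, held 2425 tailed miRNA RPM with NbrCTD-GWp and 3622 in nbrKO, with shares of 4.24% with NbrCTD-GWp and 6.82% in nbrKO. The tailed reads of all arms summed to 18503 miRNA RPM with NbrCTD-GWp and 27175 in nbrKO. These folds rest on the scaling to total miRNA reads, but the shares do not.

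**Figure D3:**
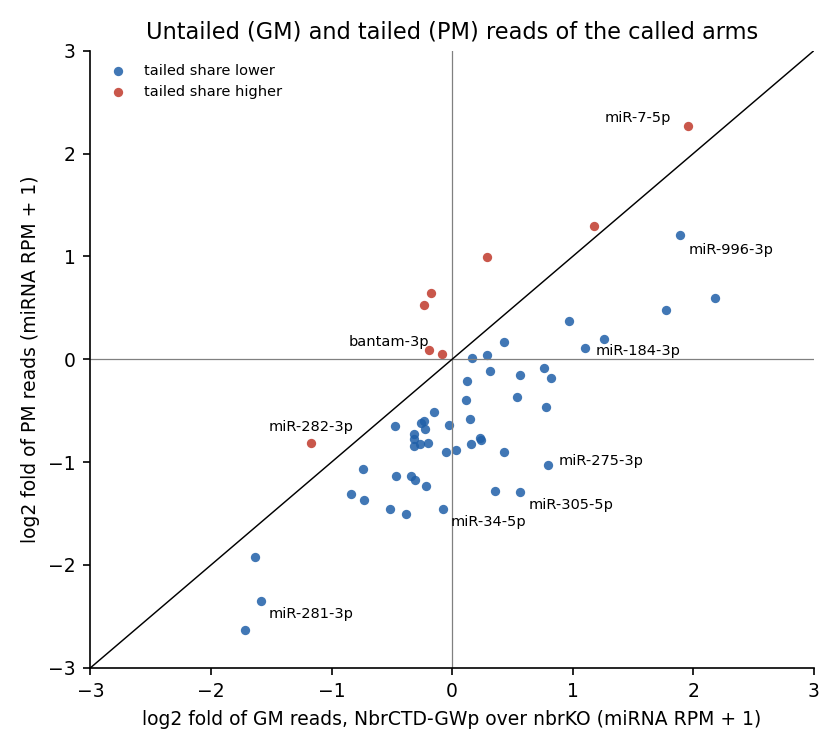
Log2 fold, NbrCTD-GWp over nbrKO, of untailed (GM, horizontal) and tailed (PM, vertical) reads in miRNA RPM + 1 for the 59 arms called in tailed share. The 51 lower arms (blue) lie below the diagonal, 42 of them with fewer tailed reads, and the 8 higher arms (red) lie above it.

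In the plot of both kinds of read, miR-305-5p and miR-275-3p stand to the right of 0 and below it. miR-34-5p stands below 0 near the vertical line, and miR-281-3p, whose reads of both kinds fell, stands at the lower left. miR-7-5p stands at the upper right, since both of its kinds of read rose and the tailed ones rose more. Of the 8 higher arms, 4 had more tailed and fewer untailed reads, 3 had more of both and 1, miR-282-3p, had fewer of both.

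Counts by kind of arm stand beside 42.5% lower and 6.67% higher over all 120 arms. Guide arms were lower in 35 of 65 and higher in 4, and passenger arms, which have fewer reads and wider intervals, were lower in 9 of 42 and higher in 4. The median tailed share of guides was 2.41% with NbrCTD-GWp and 4.02% in nbrKO, and that of passengers 2.15% with NbrCTD-GWp and 2.47% in nbrKO. Guides had a median log2 odds ratio of -0.48 and passengers one of -0.16. By side of the hairpin, 23 of 58 arms from the 5′ side were lower and 1 higher, and on the 3′ side 28 of 62 were lower and 7 higher, with medians of -0.40 and -0.42. The list of miRNAs common in S2 cells had 14 of 18 lower and 2 higher, beside 42.5% and 6.67% of all arms. All 18 had over 10000 reads in nbrKO, a depth at which 24 of 34 arms up to 100000 reads and 12 of 17 above it were lower. These share counts are not set against chance, and a guide and its passenger come from 1 precursor.

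Mirtrons, miRNAs whose hairpin is a spliced intron and whose 3′ ends are substrates of Tailor, had a median share of 9.53% with NbrCTD-GWp and 11.3% in nbrKO over 9 measured arms of 14 listed. Lower calls numbered 5 of the 9, with no higher one, beside 42.5% and 6.67% of all arms. Besides miR-1008-3p, miR-1012-3p and miR-1007-3p, the lower ones were miR-1006-3p at 10.0% with NbrCTD-GWp and 12.7% in nbrKO and miR-1003-3p at 7.59% with NbrCTD-GWp and 8.92% in nbrKO. miR-1016-3p had 12.7% with NbrCTD-GWp and 11.3% in nbrKO, with overlapping intervals. Their median log2 odds ratio was -0.38, near the -0.40 of all arms. The K-box seed family, whose members bind a motif in Notch target genes, had 5 of 8 members lower and 1 higher, beside 42.5% and 6.67% of all arms, and a median log2 odds ratio of -0.56. Its abundant members miR-2b-3p and miR-2a-3p had 1.69% and 1.07% with NbrCTD-GWp and 3.12% and 1.35% in nbrKO, and these share reads with near-identical relatives. The 7 arms with the letters of miR-2b-3p are not the same set as the list of 8, since they include miR-5-3p and leave out miR-11-3p and miR-308-3p. Summed over these 7 arms, the tailed share was 1.40% with NbrCTD-GWp and 1.94% in nbrKO, a sum that does not depend on how reads were split among them. Of 4 arms recalled as loaded into Argonaute2, where the 3′ end is methylated, 3 were lower, with a median share of 1.29% with NbrCTD-GWp and 1.89% in nbrKO. Their median log2 odds ratio of -0.37 was near the -0.40 of all arms, of which 42.5% were lower. miR-276a-5p, whose values are those of miR-276b-5p too, had overlapping intervals at 0.850% with NbrCTD-GWp and 0.663% in nbrKO.

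Several other groups shared their 5′ letters. miR-995-3p and miR-998-3p were both lower, with 3.61% and 9.58% with NbrCTD-GWp and 7.07% and 12.1% in nbrKO. In the miR-9 family, whose member miR-9a limits sensory organ precursors, miR-9b-5p had 1.957% with NbrCTD-GWp and 4.65% in nbrKO, and miR-9c-5p had 2.15% with NbrCTD-GWp and 3.52% in nbrKO. The pair miR-279-3p and miR-996-3p shares all 7 letters and a non-coding transcript and keeps extra neurons from forming. Its members went opposite ways: miR-279-3p was among the rises, whereas miR-996-3p had 1.62% (1.54 to 1.71) with NbrCTD-GWp and 2.54% (2.31 to 2.78) in nbrKO. The same 7 letters thus went with opposite directions in this pair. miR-980-3p, a miRNA linked to memory, had 6.06% with NbrCTD-GWp and 10.4% in nbrKO, and its passenger miR-980-5p had 1.02% with NbrCTD-GWp and 2.52% in nbrKO.

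Abundance was compared next. An arm was called where miRNA RPM differed at least 2-fold on the log2(value + 1) scale and exact Poisson intervals did not overlap. Among 128 arms averaging 100 reads or more, 10 were higher with NbrCTD-GWp (7.81%) and 23 lower (18%), and 68 lay within 1.5-fold. The split rests on scaling. Size factors by the median of ratios shifted all log2 folds by about 0.29 and gave 12 higher and 16 lower. The authors' RPM shifted them by about 0.25 with 12 higher and 16 lower, and trimmed means by about 0.40 with 17 higher and 14 lower. All 10 higher calls and 14 of the 23 lower calls held under each of these scalings.

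The miR-92 arms, which sustain neural stem cells and lie within jigr1, rose most. miR-92a-3p had 282 miRNA RPM with NbrCTD-GWp and 12.3 in nbrKO, a log2 fold of 4.41 on 5002 reads with NbrCTD-GWp and 161 in nbrKO. miR-92b-3p had 314 with NbrCTD-GWp and 32.5 in nbrKO, and the passenger miR-92a-5p had 63.7 with NbrCTD-GWp and 6.02 in nbrKO. All 3 measured arms of this locus pair were therefore in the higher group. miR-7-5p had 2599 miRNA RPM with NbrCTD-GWp and 668 in nbrKO, and miR-996-3p had 5067 with NbrCTD-GWp and 1378 in nbrKO, beside 9569 with NbrCTD-GWp and 4200 in nbrKO for its neighbour miR-279-3p. miR-980-5p had 288 with NbrCTD-GWp and 63.5 in nbrKO, miR-9b-5p 3365 with NbrCTD-GWp and 1011 in nbrKO, and miR-995-5p 206 with NbrCTD-GWp and 88.4 in nbrKO. The values of miR-995-5p are those of its listed isoform, whose share of the arm was also higher with NbrCTD-GWp. Its rise therefore includes that shift between isoforms, and whether the whole arm would be called was not tested. The most abundant of the higher arms was miR-184-3p, at 104548 with NbrCTD-GWp and 49986 in nbrKO.

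On the lower side, both arms of miR-278, a miRNA of energy balance, fell: miR-278-3p had 194 miRNA RPM with NbrCTD-GWp and 1120 in nbrKO, and miR-278-5p had 6.02 with NbrCTD-GWp and 47.6 in nbrKO. miR-252-5p had 787 with NbrCTD-GWp and 4348 in nbrKO, a log2 fold of -2.46. miR-986-3p had 2.31 with NbrCTD-GWp and 18.7 in nbrKO, miR-314-3p 2.87 with NbrCTD-GWp and 12.4 in nbrKO, and the mirtron passenger miR-1012-5p 34.6 with NbrCTD-GWp and 144 in nbrKO. All 3 arms of the miR-281 paralogs fell, miR-281-2-5p at 131 with NbrCTD-GWp and 455 in nbrKO, miR-281-1-5p at 31.9 with NbrCTD-GWp and 112 in nbrKO, and miR-281-3p at 118 with NbrCTD-GWp and 376 in nbrKO. The passenger miR-33-3p, from an intron of the lipid regulator SREBP, had 3712 with NbrCTD-GWp and 11196 in nbrKO. Of the reported substrates, miR-263a-5p was lower in abundance, at 64.4 with NbrCTD-GWp and 171 in nbrKO, and miR-7-5p was higher.

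**Figure D4:**
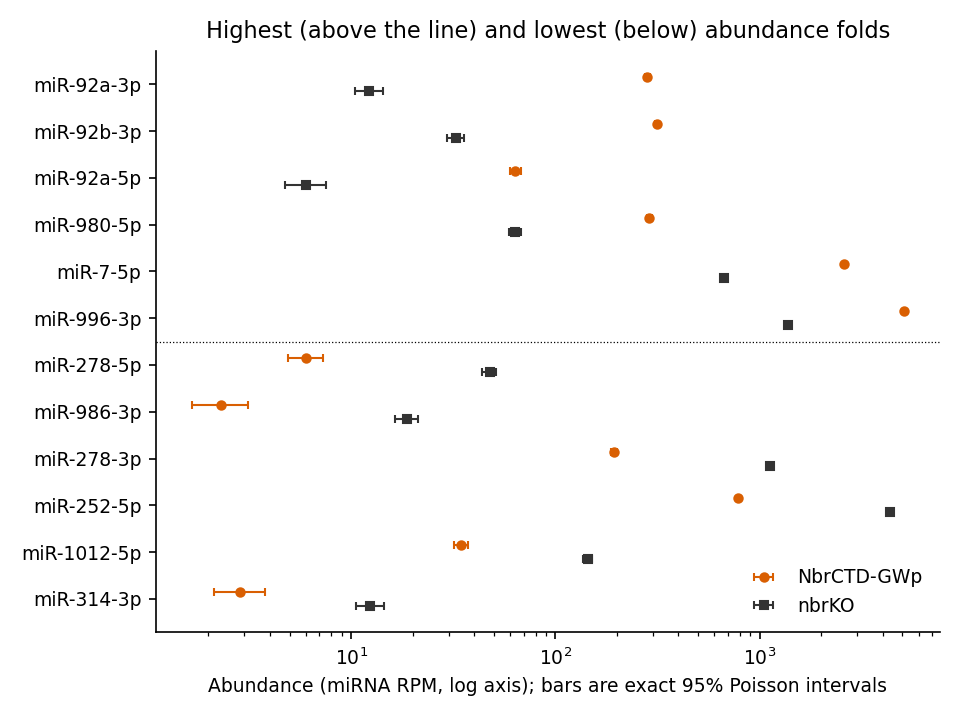
Abundance in miRNA RPM, on a log axis, of the 6 arms with the highest (above the dotted line) and the 6 with the lowest (below it) called log2 folds. Circles are NbrCTD-GWp, squares nbrKO, and bars exact 95% Poisson intervals of counting error; no pair of intervals overlaps.

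The plot of abundance extremes holds arms of very different depth, from miR-314-3p, with a few miRNA RPM, to miR-996-3p, the deepest of the 12. Tail and abundance calls were set side by side. Both readouts use the same reads, so they are not independent. Over all 120 arms, 42.5% were lower in tailed share and 6.67% higher. Of the 10 arms higher in abundance, 9 had a tailed share measured, and of these 5 were lower in tailed share (miR-184-3p, miR-980-5p, miR-995-5p, miR-996-3p and miR-9b-5p) and 2 higher (miR-279-3p and miR-7-5p). Of the 23 lower in abundance, 19 were measured, 3 were lower in tailed share (miR-281-2-5p, miR-281-3p and miR-968-5p) and 1 was higher (miR-282-3p, whose abundance call did not hold under every scaling). miR-278-3p and miR-252-5p, which fell several-fold in abundance, had overlapping tailed shares, at 2.41% and 1.41% with NbrCTD-GWp and 3.01% and 1.48% in nbrKO.

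The balance of the arms of 1 precursor does not depend on scaling. The passenger share, passenger reads over passenger plus guide reads, was measured for 63 precursors. It was lower with NbrCTD-GWp in 26 (41.3%) and higher in 13 (20.6%), and intervals overlapped for 24. Some of the 63 belong to multi-locus families, whose reads can be split among relatives. Without these, 20 of 53 were lower and 11 higher. In the lower group miR-7 had the largest change, with 4.85 passenger reads per 100 guide reads with NbrCTD-GWp and 22.2 in nbrKO, a log2 change of -2.19. For miR-996 these were 9.06 with NbrCTD-GWp and 36.9 in nbrKO, and for miR-184 they were 3.26 with NbrCTD-GWp and 12.1 in nbrKO. In all 3 the guide had risen in abundance while the passenger had not: the log2 folds of the guides were 1.958, 1.88 and 1.06, and those of miR-7-3p, miR-996-5p and miR-184-5p were -0.23, -0.15 and -0.82. The fourth was miR-2b-1, whose guide shares reads with its relatives. Among the rises, miR-263a had 2.62 passenger reads per 100 guide reads with NbrCTD-GWp and 0.757 in nbrKO, on only 30 passenger reads with NbrCTD-GWp and 17 in nbrKO. miR-980 had 3.64 with NbrCTD-GWp and 1.30 in nbrKO, miR-966 had 16.5 with NbrCTD-GWp and 7.82 in nbrKO, and miR-995 had 4.15 with NbrCTD-GWp and 2.02 in nbrKO. For miR-995 the passenger reads are those of the listed 5′ isoform, whose share of its arm was also higher with NbrCTD-GWp.

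**Figure D5:**
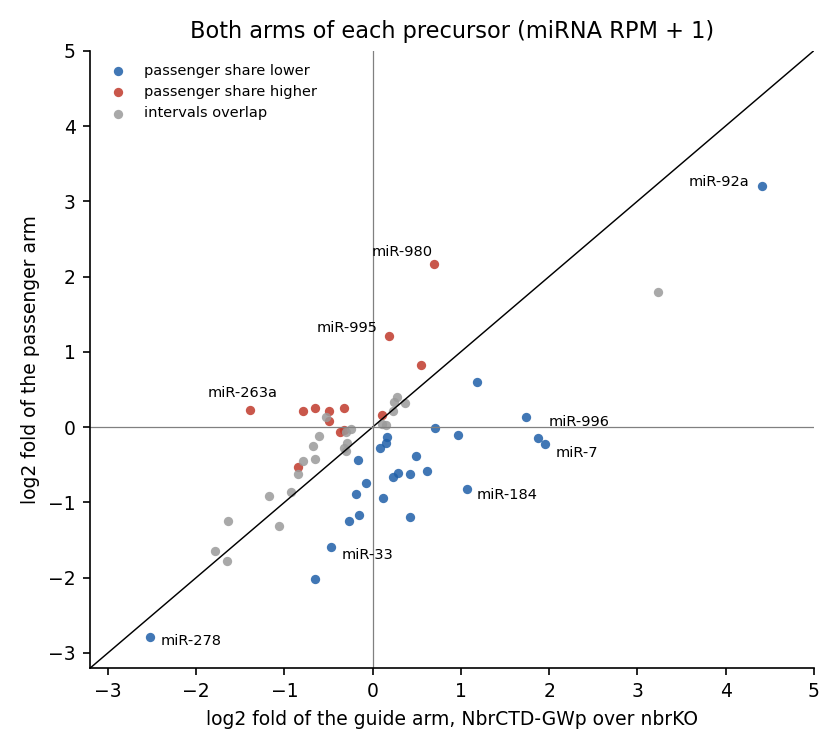
Log2 fold of abundance, NbrCTD-GWp over nbrKO, of the guide arm (horizontal) and the passenger arm (vertical) of 63 precursors, in miRNA RPM + 1. Precursors whose passenger share was lower are blue (26), higher red (13), and the rest grey; on the diagonal both arms change by the same fold, as miR-278 nearly does.

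The plot of both arms places miR-7, miR-996 and miR-184 at the lower right, with a risen guide and no such rise of the passenger, and miR-92a at the upper right, where both arms rose. miR-33 and miR-1012 lie to the lower left with the lower fold in the passenger: the log2 folds were -0.47 for miR-33-5p and -1.59 for miR-33-3p, and -0.65 for miR-1012-3p and -2.02 for miR-1012-5p. The median log2 change of the ratio was -0.07 over the 63, and 36 of them lay below 0. Without multi-locus precursors it was -0.02 over 53, with 29 below 0.

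Which 5′ end an arm used changed for few arms. The listed 5′ isoform's share of its arm differed by under 1 percentage point in 80 of 120 arms. It was at least 5 points lower in 4 (3.33%) and at least 5 points higher in 4 (3.33%). The lower ones were miR-2497-3p at 61.4% with NbrCTD-GWp and 92.3% in nbrKO, miR-2c-3p at 80.4% with NbrCTD-GWp and 91.5% in nbrKO, miR-2b-1-5p at 84.3% with NbrCTD-GWp and 94.3% in nbrKO, and miR-281-1-5p at 88.9% with NbrCTD-GWp and 93.9% in nbrKO. The higher ones were miR-1002-3p at 86.7% with NbrCTD-GWp and 73.8% in nbrKO, miR-995-5p at 82.3% with NbrCTD-GWp and 69.8% in nbrKO, miR-279-5p at 64.5% with NbrCTD-GWp and 54.6% in nbrKO, and miR-281-3p at 72.7% with NbrCTD-GWp and 65.6% in nbrKO. miR-2497-3p thus differed both at its 5′ end and in its tails, on fewer than 200 listed reads in each library.

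NbrCTD-GWp was set directly against the libraries of the other constructs to show where it differs from them. Both comparisons use the 1 NbrCTD-GWp library, so they are not independent. Against NbrCTD, 40 of 118 arms were lower (33.9%) and 4 higher (3.39%), and the other 74 overlapped. Over these arms the median share was 2.25% with NbrCTD-GWp and 2.73% with NbrCTD. miR-1007-3p had 15.6% with NbrCTD-GWp and 29.4% with NbrCTD, miR-2c-3p 6.46% with NbrCTD-GWp and 17.8% with NbrCTD, miR-998-3p 9.58% with NbrCTD-GWp and 17.1% with NbrCTD, and miR-980-3p 6.06% with NbrCTD-GWp and 13.02% with NbrCTD. In each of these 4 arms, the share with NbrCTD was also above the one in nbrKO. miR-1000-5p had 1.62% (0.743 to 3.05) with NbrCTD-GWp and 6.07% with NbrCTD, and miR-281-3p 5.86% with NbrCTD-GWp and 9.31% with NbrCTD. The substrate miR-263a-5p, not called against nbrKO, had 4.02% with NbrCTD-GWp and 7.34% (5.63 to 9.36) with NbrCTD. The 4 higher arms were miR-1008-3p at 51.4% with NbrCTD-GWp and 45.4% with NbrCTD, miR-1006-3p at 10.0% with NbrCTD-GWp and 7.40% with NbrCTD, miR-7-5p at 0.992% with NbrCTD-GWp and 0.627% with NbrCTD, and miR-2a-2-5p at 1.34% with NbrCTD-GWp and 1.16% with NbrCTD.

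Against Nbr(wt), 12 of 119 arms were lower (10.1%) and 23 higher (19.3%), and the other 84 overlapped. Over these arms the median share was 2.15% with NbrCTD-GWp and 2.04% with Nbr(wt). The lower ones included miR-1007-3p at 15.6% with NbrCTD-GWp and 21.2% with Nbr(wt), miR-980-3p at 6.06% with NbrCTD-GWp and 9.07% with Nbr(wt), miR-275-3p at 2.46% with NbrCTD-GWp and 4.47% with Nbr(wt), and miR-184-3p at 2.56% with NbrCTD-GWp and 3.69% with Nbr(wt). miR-970-3p had 4.24% with NbrCTD-GWp and 5.57% with Nbr(wt), and miR-995-3p 3.61% with NbrCTD-GWp and 4.63% with Nbr(wt). The higher ones included miR-1006-3p at 10.0% with NbrCTD-GWp and 6.44% with Nbr(wt), miR-998-3p at 9.58% with NbrCTD-GWp and 7.36% with Nbr(wt), miR-996-5p at 3.74% with NbrCTD-GWp and 1.95% with Nbr(wt), miR-306-3p at 5.05% with NbrCTD-GWp and 3.49% with Nbr(wt), miR-1003-3p at 7.59% with NbrCTD-GWp and 6.22% with Nbr(wt), and miR-317-3p at 5.94% with NbrCTD-GWp and 4.68% with Nbr(wt). For miR-305-5p the values were 1.99% with NbrCTD-GWp and 2.00% with Nbr(wt), with overlapping intervals, and for miR-34-5p they were 3.92% (3.84 to 4.00) with NbrCTD-GWp and 3.70% with Nbr(wt), which do not overlap. miR-275-3p and miR-305-5p, neighbours that fell alike against nbrKO, therefore stood differently against Nbr(wt).

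The miRNA rows held 17766373 reads with NbrCTD-GWp and 13126126 in nbrKO, which were 65.0% of the library total behind the RPM values with NbrCTD-GWp and 54.7% in nbrKO. Levels of miRNA markers of cell types were also read. The 6 markers listed for S2 cells were all present, with 669596 miRNA RPM in sum with NbrCTD-GWp and 640441 in nbrKO. They were listed with earlier results of these data known, so their presence is no check of the labelled cell type. Of 20 markers of other cells (muscle, neurons, larva or adult, young embryo, ovary, testis), 16 were given in both libraries, with a sum of 160 miRNA RPM with NbrCTD-GWp and 275 in nbrKO, led by the ovary marker miR-318-3p at 86.3 with NbrCTD-GWp and 139 in nbrKO. Their part in any result was not tested.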

How the data were processed

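Values came from 1 table of miRNA isoforms that the authors deposited. Per the file headers, the authors gave GM and PM values in RPM and a 5′ isoform fraction (0 to 1) for each library. Per the submitters' processing notes, cutadapt (1.2.1) and HTSeq (0.9.1) were used. The aligner is not given in the sources used here, nor is the genome build. In the deposited RPM, values are multiples of the worth of 1 read, so reads were recovered. Whole reads, within 0.01 read, made up 94.8% to 95.9% of GM and 91.7% to 95.2% of PM values above 0, and the rest are fractions, as for reads split over loci. No count model was fitted, since a group has 1 library and some reads are fractions. Library totals were 27312149 reads (NbrCTD-GWp), 26500155 (NbrCTD), 32488012 (Nbr(wt)) and 24005045 (nbrKO).

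Loci with the same name and 7 letters were summed, and the table's bft was matched to miR-263a through RefSeq synonyms. Tailed and passenger shares have exact Clopper-Pearson 95% intervals and abundance exact Poisson ones (scipy 1.17.1). Reads were rounded only for intervals. Tailed share needed 100 reads in both libraries, a passenger share 10 passenger and 100 guide reads in both. Odds ratios used 0.5 added reads, and abundance a pseudocount of 1. PCR duplicates were not removed here, so intervals cover counting error only. The call rules were run on simulated counts that had no spread between libraries. That run cannot show whether calls would hold in a replicate. The arms named are the 12 largest falls and 8 rises in tailed share, listed members, and the extremes of each other readout, and arms outside this rule were named after their values were seen. The members and lists were chosen with earlier results of these data known.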

Additional observations from a re-analysis of the deposited data

Results flagged for a closer look

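miR-252-3p, the other arm of the miR-252 precursor, has no row given in both libraries, because the isoform listed for it differs by 1 base at the 5′ end, and it entered no comparison. With NbrCTD-GWp the table lists the isoform that begins TCCTGCT, at 6.81 RPM (186 reads, 46.7% of the arm's reads). In nbrKO it lists the one that begins CCTGCTG, at 48.6 RPM (1167 reads, 60.4%). Each is a signal outside the rows compared. By the authors' positions they start at 9289974 and 9289973 on the minus strand of 3R. The 2 values belong to different isoforms, so they give no fold for miR-252-3p. Its partner arm miR-252-5p was lower with NbrCTD-GWp, at 787 against 4348 miRNA RPM in nbrKO.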

How the results depend on the processing

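No paired analysis was possible because each group has 1 library, and no library could be left out. Tailed shares: lower calls kept within 1.5 times of 51 under every alternative run, whereas of the 8 higher arms 4 remained past a log2 odds ratio of 0.5 and 3 past 1 percentage point. Abundance: trimmed means gave 17 higher and 14 lower arms in place of 10 and 23, a 1.5-fold threshold 18 and 42, no read minimum 36 lower, and a pseudocount of 10 miRNA RPM 15 lower. Isoform share: a minimum of 30 reads gave 7 lower arms, and 10 points 2 higher. Median-of-ratios scaling moved each list median of log2 abundance by about the common shift. The medians became 0.046 (substrates), -0.086 (miR-277 cluster), 0.53 (miR-275), -0.027 (miR-11), 0.58 (miR-12) and 0.60 (miR-9c). Others became 3.52 (miR-92), 1.19 (miR-279), -1.49 (miR-281), 0.26 (K-box), 0.44 (mirtrons) and -0.14 (Argonaute2). The rest became 0.31 (common in S2 cells), 0.11 (guides), 0.14 (passengers), 0 (5′ side), 0.10 (3′ side) and 0.053 (all arms). Those of substrates, K-box members, guides, passengers, 3′ side and all arms thereby changed sign. Passenger shares and the direct comparisons stayed within 1.5 times of their counts, also under settings chosen after seeing the data. No called result changed its direction. Over all pairs of a single named value and an alternative, 31 of tailed share and 11 of abundance lost their call, 19 of abundance gained one, and 497 of tailed share, 607 of abundance and 22 of the passenger ratio stayed as they were. Arms under 1000 reads have intervals too wide for small differences.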
